A study of Mus musculus with 28 samples.

Results

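The genes of meiotic entry and of the meiotic chromosome axis described here were taken from the gene and promoter tables as the rows named Stra8, Rec8, Sycp1, Sycp2, Sycp3, Syce1, Syce3, Smc1b and Hormad1. They are 9 of 22138 genes, each with 1 row in both tables, and all 9 passed the filter on low RNA values. In heterozygous controls the RNA of 8 of the 9 was higher in fetal germ cells of the ovary than in those of the testis. Of all 13518 genes tested, 17.6% were higher. The 8 ran from Stra8, which was near 0 in males, to Syce1 and Hormad1, which both sexes held in quantity. Levels are in RPKM (read number divided by gene length and by library size). In germ cells labelled as Setdb1 KO, 6 of the 9 were higher in females, where 9.71% of all genes were. Against heterozygous controls, 0 of the 9 passed the test in KO in either sex. Of all genes, 0.614% passed it in males and 0.407% in females.

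The study took gonads of mouse embryos at E13.5 (embryonic day) and sorted germ cells by the surface antigen SSEA1, with the negative cells as gonadal soma. Setdb1 encodes a histone H3K9 methyltransferase. The groups, each in males and females, are Setdb1 delta/- (KO, 2 RNA libraries per sex), delta/+ (Het1, 2 per sex), flox/- (Het2, 2 per sex) and flox/+ (WT, 1 per sex). Het1 and Het2 were pooled as Het (n = 4 per sex). By limma 0 of the 9 genes differed between them, where 2 of all 13518 genes tested were called. An unadjusted p under 0.05 by limma was found for 0 of the 9 and for 164 of all genes. Every control of the cross carries at least 1 altered Setdb1 allele, and the labels do not name the Cre driver. Male C57BL/6 germ cells and soma have 1 RNA library each. The promoter libraries for H3K27me3 and H3K9me3 number 1 per mark, sex and genotype, with flox/- as Het. Male C57BL/6 soma has H3K9me3 only.

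Meiosis begins in the fetal ovary, while germ cells of the fetal testis arrest in mitosis and enter meiosis after birth. STRA8 is induced by retinoic acid and, with its partner MEIOSIN, switches on the meiotic programme. REC8 and SMC1B are subunits of meiotic cohesin, which holds sister chromatids and forms the base of the chromosome axis. SYCP2, SYCP3 and HORMAD1 assemble on that axis. SYCP1 spans the synaptonemal complex between paired homologues, and SYCE1 and SYCE3 belong to its central element.

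Setdb1 itself was checked first. Its RNA stood at 27.1 and 31.2 RPKM in male KO against 37.5 to 52.05 in male Het, and at 34.65 and 31.3 in female KO against 38.2 to 58.9 in female Het. All KO libraries lay below all Het libraries of their sex, but RNA was still counted, and a value over the whole gene does not show whether the deleted part was read. Library depth is unknown. Summed over 9 germ cell markers found by name, RNA was 919 to 2269 RPKM in the cross and 25.2 in soma, so the markers were high in the libraries labelled as germ cells and low in soma. Female Het2 replicate 1 and male Het1 replicate 1 each had the lowest mean rank correlation within their sex, 0.946 where the other 5 female libraries had 0.954 to 0.966, and 0.955 where the other 5 male libraries had 0.968 to 0.974. Female Het2 replicate 1 also held 257 RPKM of summed erythroid markers, against 1.78 to 43.0 in the other female libraries.

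The sequences around the starts of 5 of the genes are shown because these promoters hold letters known as binding motifs of germline regulators. Whether the motifs bear on the RNA of these genes was not tested. They are RefSeq sequences of build GRCm38.p6, from 250 bases before to 50 bases after the start, 5′ to 3′ on the gene's strand; a RefSeq promoter was found for all 9 genes. The promoter tables were made on mm9, and no position was carried between the builds. Capitals mark AGGTCA (bound by nuclear receptors, the family of the retinoic acid receptors) in Stra8, GCGGGAA (E2F-type) in Sycp3, Hormad1 and Smc1b (in Smc1b on the opposite strand), CACGTG (E-box) in Sycp3, Hormad1 and Sycp1, and CNCCTCAG (STRA8-type, on the opposite strand) in Sycp1.
Stra8, chr6:34920698-34920997, + strand: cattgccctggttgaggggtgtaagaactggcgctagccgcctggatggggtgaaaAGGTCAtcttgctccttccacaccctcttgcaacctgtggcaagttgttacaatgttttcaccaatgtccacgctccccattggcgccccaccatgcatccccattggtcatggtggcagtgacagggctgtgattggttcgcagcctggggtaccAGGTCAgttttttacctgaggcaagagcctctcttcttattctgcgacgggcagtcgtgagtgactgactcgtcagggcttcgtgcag
Sycp3, chr10:88459337-88459636, + strand: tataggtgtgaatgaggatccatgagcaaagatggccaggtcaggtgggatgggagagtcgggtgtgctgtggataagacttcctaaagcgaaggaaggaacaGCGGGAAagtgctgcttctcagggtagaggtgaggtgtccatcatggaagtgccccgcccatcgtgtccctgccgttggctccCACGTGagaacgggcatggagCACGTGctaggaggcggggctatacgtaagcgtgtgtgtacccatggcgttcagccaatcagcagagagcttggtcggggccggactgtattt
Hormad1, chr3:95559427-95559726, + strand: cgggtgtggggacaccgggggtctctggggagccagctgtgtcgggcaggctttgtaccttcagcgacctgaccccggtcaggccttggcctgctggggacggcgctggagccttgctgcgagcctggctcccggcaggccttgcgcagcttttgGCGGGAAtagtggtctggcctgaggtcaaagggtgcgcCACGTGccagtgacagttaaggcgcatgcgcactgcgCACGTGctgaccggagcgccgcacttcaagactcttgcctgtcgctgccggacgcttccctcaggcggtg
Sycp1, chr3:102936051-102936350, - strand: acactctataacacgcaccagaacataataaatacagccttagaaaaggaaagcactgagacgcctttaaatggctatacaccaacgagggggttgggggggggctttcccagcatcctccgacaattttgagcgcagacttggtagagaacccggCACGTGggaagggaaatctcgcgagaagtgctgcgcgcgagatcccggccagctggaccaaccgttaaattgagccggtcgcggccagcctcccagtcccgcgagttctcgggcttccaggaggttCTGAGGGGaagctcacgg
Smc1b, chr15:85131908-85132207, - strand: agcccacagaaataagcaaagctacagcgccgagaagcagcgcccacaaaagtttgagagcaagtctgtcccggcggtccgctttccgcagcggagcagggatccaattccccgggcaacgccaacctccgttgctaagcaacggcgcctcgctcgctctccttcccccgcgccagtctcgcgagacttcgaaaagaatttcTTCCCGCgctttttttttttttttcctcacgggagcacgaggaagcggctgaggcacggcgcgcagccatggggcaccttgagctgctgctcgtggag
Searched on both strands, GCGGGAA was found at 3 of the 9 genes and in 4.6% of all 32851 RefSeq promoters of this length. CACGTG, a palindrome, was found at 3 of the 9 genes and in 7.15% of promoters. The promoters of Sycp3 and Hormad1 held 2 copies of it each. AGGTCA was found at 3 of the 9 genes (Stra8, Sycp3 and Hormad1) and in 16.3% of promoters, and CNCCTCAG at 1 of the 9 and in 7.94%. In the Stra8 promoter the 2 copies of AGGTCA began 194 and 38 bases before the start. Rec8, Sycp2, Syce1 and Syce3 held none of these letters in the window. The CpG content (observed over expected) ranged from 0.218 at 1 of the 2 Syce3 starts to 1.08 at Smc1b, with a median of 0.666 over the 11 RefSeq promoters of the 9 genes and 0.384 over all promoters. These matches are descriptions of sequence only.

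Stra8, the switch gene, had the widest gap between the sexes. In male Het it was at 2.3, 0.18, 0.23 and 0 RPKM (Het1 replicates 1 and 2, then Het2 replicates 1 and 2). In female Het it was at 122, 137, 323 and 73.35 RPKM in the same order. Every female library lay above every male library, and male Het1 replicate 1 was the highest of the males. The log2 difference, female minus male, was 6.59 (SE 0.42, 95% interval 5.67 to 7.50, adjusted p = 5.53e-07 by limma on log2(RPKM + 1)). In KO the difference was 6.57, with 1.09 and 0.95 RPKM in males and 228 and 158 in females (SE 0.60, adjusted p = 3.03e-05 by limma). The KO contrast uses none of the Het libraries, though the estimate of the spread is shared. In these bulk samples, fewer germ cells that have begun meiosis and less RNA per cell cannot be told apart.

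Next by role are the cohesin genes. Rec8 was at 16.97, 10, 6.93 and 7.73 RPKM in male Het and at 103.9, 98.7, 158 and 59.3 in female Het, which is 10.1-fold by the group means. The groups did not overlap, and the log2 difference was 3.21 in Het (SE 0.29, adjusted p = 9.78e-06) and 3.40 in KO (SE 0.40, adjusted p = 3.4e-04), both by limma. Smc1b was already abundant in males, where it had the highest level of the 9 genes, 83.75 to 95.8 RPKM in Het. Female Het libraries had 168, 299, 457 and 216 RPKM of it, all above the males. Its log2 difference was 1.55 in Het (SE 0.25, adjusted p = 8.51e-04) and 1.62 in KO (SE 0.36, adjusted p = 0.0113), by limma. So REC8, the kleisin subunit, and SMC1B, the SMC subunit, differed in their RNA by unequal factors, 10.1 and 3.15 by the means of Het.

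Among the axis proteins, Sycp3 rose most. Male Het libraries had 38.7, 20.3, 19.5 and 18.2 RPKM of Sycp3, and female Het libraries 55.96, 103.5, 269 and 47.9. All females lay above all males, with a log2 difference of 1.97 in Het (SE 0.43, adjusted p = 0.00452) and 2.38 in KO (SE 0.61, adjusted p = 0.0213), by limma. Hormad1, a HORMA-domain protein that marks unsynapsed axes, went from 27.3, 31.0, 27.3 and 46.1 RPKM to 45.6, 72.9, 107.9 and 60.3. Here the groups touched, since male Het2 replicate 2 lay above female Het1 replicate 1. Its log2 difference passed in Het (1.06, SE 0.27, adjusted p = 0.00991) but not in KO (0.76, 95% interval -0.06 to 1.58, adjusted p = 0.182), by limma; whether these 2 values differ is covered by the interaction test below.

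Sycp2, the partner of SYCP3, was the gene of the 9 that did not pass in either genotype. It stood at 8.36, 5.41 and 6.39 RPKM in male Het1 replicate 2 and Het2 replicates 1 and 2, higher in Het1 replicate 1, and at 5.63, 17.9, 36.7 and 5.49 RPKM in female Het. Female Het1 replicate 1 and Het2 replicate 2 lay within the male range, and the other female Het libraries above it. The log2 difference was 0.56 (95% interval -0.48 to 1.61, adjusted p = 0.399) in Het and 0.57 (-0.91 to 2.05, adjusted p = 0.596) in KO, by limma. The intervals reach from a lower value in females to more than 1 log2 unit higher, so an equal level in the sexes is not shown.

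The genes of the synaptonemal complex core come last by role. Sycp1 was at 34.6, 12.1, 19.35 and 19.5 RPKM in male Het and at 34.8, 67.2, 82.3 and 42.0 in female Het. The highest male and the lowest female library were nearly level, and the log2 difference was 1.37 (SE 0.33, adjusted p = 0.00779). In KO the male libraries had 29.6 and 50.95 RPKM and the female ones 48.9 and 82.4, the sexes overlapped, and the difference did not pass (0.69, 95% interval -0.32 to 1.71, adjusted p = 0.326 by limma). Syce1 went from 35.2, 26.1, 28.4 and 22.7 RPKM in male Het to 39.8, 54.2, 107.4 and 41.0 in female Het (0.98, SE 0.26, adjusted p = 0.013 by limma; in KO 1.25, adjusted p = 0.0373). Syce3 had the lowest level of the 9 in females, at 2.91, 2.94, 3.04 and 2.43 RPKM in male Het and 5.92, 13.1, 17.55 and 3.37 in female Het. Its lowest female library lay just above the highest male one, and the log2 difference was 1.30 in Het (SE 0.36, adjusted p = 0.0155) and 2.09 in KO (SE 0.51, adjusted p = 0.0173), by limma.

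**Figure D1:**
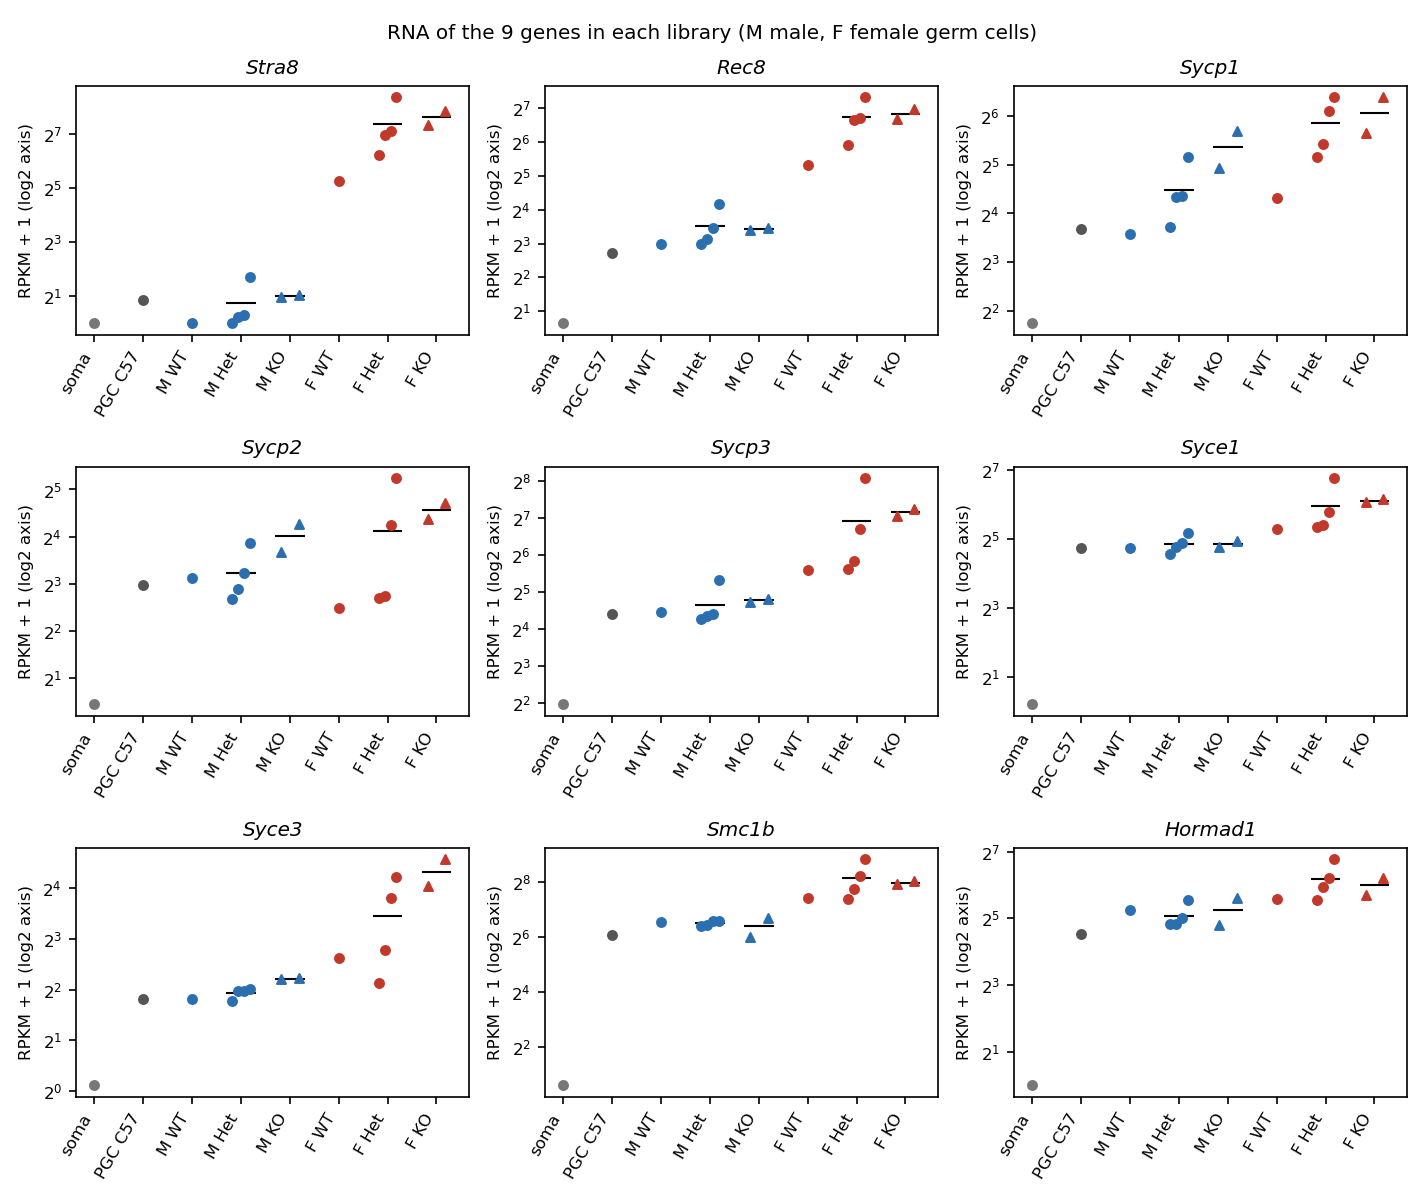
RPKM + 1 of each gene (log2 axis) in every RNA library, by group, with circles for controls and triangles for KO; bars are group means where a group has more than 1 library. Stra8 is near the floor in all male libraries and at 36.7 to 323 RPKM in the female ones, while Sycp2 overlaps between the sexes.

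Counted over the list, 8 of the 9 genes were higher in female Het and 0 lower, where 17.6% of all 13518 genes tested were called higher and 14.3% lower. The median log2 difference was 1.37 for the 9 genes and 0.05 for all genes. In KO, 6 of the 9 were higher and 0 lower, where 9.71% of all genes were called higher and 6.42% lower; the medians were 1.62 and 0.09. All 4 female Het libraries lay above all 4 male Het libraries for 7 of the 9 genes, an order found in 17.3% of all genes. Over Het and KO together, all 6 female libraries lay above all 6 male libraries for Stra8, Rec8, Sycp3, Syce1 and Smc1b, an order found in 12.8% of all genes. With Het1 alone as control 5 of the 9 passed, with 8.71% of all genes called in either direction against 31.9% with all Het libraries. Sycp1 (adjusted p = 0.175), Syce1 (adjusted p = 0.123) and Hormad1 (adjusted p = 0.101) then no longer passed by limma. The difference of Sycp2 was then -0.06 (adjusted p = 0.951 by limma). Syce3 in Het no longer passed without female Het1 replicate 2 (adjusted p = 0.0516) or with Het2 alone as control (adjusted p = 0.162), nor did Hormad1 with Het2 alone (adjusted p = 0.0795), by limma. Syce1 in KO no longer passed without male Het2 replicate 1 (adjusted p = 0.0533) or with Het2 alone as control (adjusted p = 0.057), by limma. Nor did it pass by limma with no filter (adjusted p = 0.0625) or with median centring (adjusted p = 0.0595). The KO count fell to between 2 and 3 when any 1 KO library was left out, with 3.23% to 4.86% of all genes then called in either direction against 16.1%, which leaves a single KO library in that sex, assumed to vary like the other groups.

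**Figure D2:**
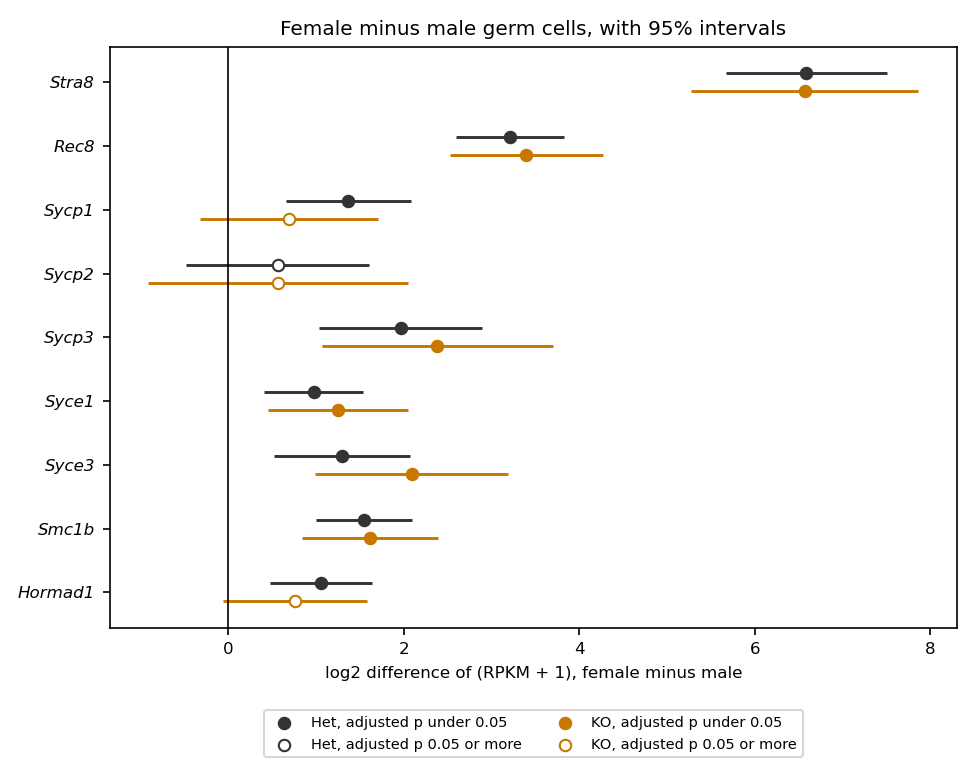
Log2 difference of RPKM + 1, female minus male, for each gene in Het (black) and in KO (orange), with 95% intervals from limma; filled points have an adjusted p under 0.05. Stra8 (6.59 and 6.57) and Rec8 (3.21 and 3.40) stand farthest from 0, and both intervals of Sycp2 cross it.

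The order of levels also changed with sex. In male Het, Smc1b (90.4 ± 6.23 RPKM, SD, n = 4) stood above a group of Hormad1 (32.9 ± 8.97), Syce1 (28.1 ± 5.26), Sycp3 (24.2 ± 9.72) and Sycp1 (21.4 ± 9.44). Neighbours within that group differed by less than their SD. Rec8 (10.4 ± 4.56) and Sycp2 (8.415 ± 3.61) came next and also overlapped, then Syce3 (2.83 ± 0.272) and Stra8 (0.678 ± 1.09). In female Het the order began with Smc1b (285 ± 126 RPKM, n = 4), Stra8 (164 ± 109), Sycp3 (119 ± 103) and Rec8 (105 ± 40.6). The ranges of neighbours in this order overlapped, but Smc1b (168 to 457 RPKM) lay above Rec8 (59.3 to 158) in all libraries. Stra8 was thus last of the 9 in males and next after Smc1b in females by the mean. Hormad1 (71.7 ± 26.6), Syce1 (60.6 ± 31.9) and Sycp1 (56.6 ± 22.1) followed, also overlapping, and Sycp2 (16.4 ± 14.7) and Syce3 (9.975 ± 6.51) were lowest.

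Female libraries of the same genotype differed widely in the 9 genes. Female Het2 replicate 1 had the highest value of the 7 female libraries of the cross for 7 of the 9 genes and was above the female median for 9 of 9. The exceptions were Sycp1 and Syce3, which were highest in female KO replicate 2. The wild-type female library was lowest for 6 of the 9 genes and above the median for 0. For these counts, and for those in males below, the share of all genes is not given. They thus do not show a trait of these genes. Across the female Het libraries the highest value was 2.37 times the lowest for Sycp1 and Hormad1, 4.4 times for Stra8, 5.62 times for Sycp3 and 6.69 times for Sycp2. In males the same ratio was 1.14 for Smc1b and 1.25 for Syce3 but 2.85 for Sycp1, and male Het1 replicate 1 was highest for 4 of the 9 genes (Stra8, Rec8, Sycp3 and Syce1), as was male KO replicate 2 for another 4. Female Het2 replicate 1, with the highest values, is the library with the high erythroid RNA given above, and its summed germ cell markers (1346 RPKM) were the lowest of the 4 female Het libraries; their part in the result was not tested.

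**Figure D3:**
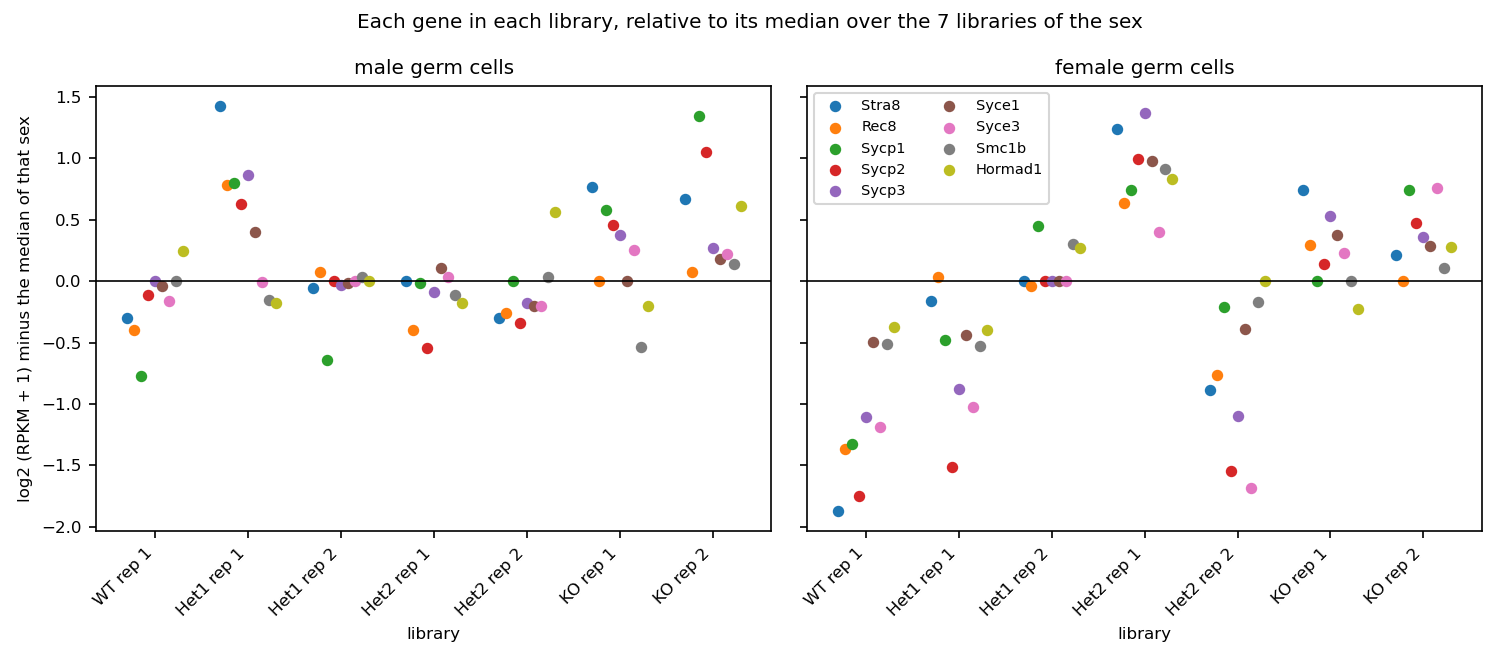
Log2(RPKM + 1) of each gene in each library minus the median of the 7 libraries of that sex, with 1 colour per gene. In female Het2 replicate 1 all 9 genes lie above 0, in the wild-type female library 0 of the 9 do, and most male libraries stay nearer to 0. The share of all genes placed so is not given.

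The comparison of KO with Het asked whether loss of Setdb1 alters these genes. In males 0 of the 9 genes passed by limma, where 0.614% of all genes did. An unadjusted p under 0.05 by limma was found for 615 of all 13518 genes tested and for 1 of the 9. That gene was Sycp1, at 29.6 and 50.95 RPKM in KO against 34.6, 12.1, 19.35 and 19.5 in Het, with a log2 difference of 0.92 (95% interval 0.05 to 1.80, unadjusted p = 0.0402, adjusted p = 1 by limma). Male Het1 replicate 1 lay between the 2 KO libraries. Sycp2 had 11.8 and 18.4 RPKM in male KO (0.82, 95% interval -0.46 to 2.09), and Syce3 had 3.69 and 3.6 (0.28, -0.67 to 1.23). For Syce3 both male KO libraries lay above all male Het libraries, as KO libraries lay apart from Het in 13.1% of all genes. The remaining differences were 0.45 for Stra8 (-0.68 to 1.57), 0.18 for Sycp3 (-0.96 to 1.32), 0.15 for Hormad1 (-0.56 to 0.86), 0.02 for Syce1 (-0.67 to 0.70), -0.01 for Rec8 (-0.77 to 0.75) and -0.15 for Smc1b (-0.82 to 0.52).

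In females 0 of the 9 passed by limma as well, where 0.407% of all genes did. An unadjusted p under 0.05 by limma was found for 1670 of all 13518 genes tested and for 1 of the 9, Syce3. Syce3 was at 15.5 and 22.8 RPKM in female KO against 5.92, 13.1, 17.55 and 3.37 in Het, a log2 difference of 1.07 (95% interval 0.12 to 2.02, unadjusted p = 0.0302, adjusted p = 0.337 by limma). Female Het2 replicate 1 lay between its KO libraries. Sycp2 stood at 19.8 and 25.2 RPKM in KO (0.82, -0.46 to 2.10) and Sycp3 at 149.8 and 133 (0.60, -0.54 to 1.73). Stra8 differed by 0.43 (-0.70 to 1.55), Syce1 by 0.29 (-0.39 to 0.98), Sycp1 by 0.25 (-0.63 to 1.12), Rec8 by 0.18 (-0.58 to 0.94), Smc1b by -0.07 (-0.74 to 0.60) and Hormad1 by -0.15 (-0.86 to 0.56). For 0 of the 9 genes did the female KO libraries lie apart from all female Het libraries, as they did in 20.5% of all genes. The intervals are wide, so equal levels are not shown. Beside these values, 5 Leydig cell markers summed to 26.9 and 56.1 RPKM in male KO against 3.42 to 5.32 in male Het and 674 in soma, and 5 stromal markers to 31.6 and 46.5 RPKM in female KO against 12.3 to 32.0 in female Het. Summed endothelial markers were 8.59 and 12.3 RPKM in female KO against 3.55 to 8.31 in female Het, and summed germ cell markers 919 and 1237 against 1346 to 1717. Outside the fit, the Leydig sum was 19.8 RPKM in the wild-type male library and 11.7 in male C57BL/6 germ cells. The wild-type female library had sums of 27.8 (stromal), 11.3 (endothelial) and 1601 (germ cell) RPKM. The part of these markers in the values of the 9 genes was not tested. Male C57BL/6 soma held at most 2.88 RPKM of any of the 9 genes, and there is no RNA library of ovarian soma.

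Over both sexes 0 of the 9 passed by limma, where 1.04% of all genes did. An unadjusted p under 0.05 by limma was found for 1708 of all 13518 genes tested and for 1 of the 9, Syce3. The median was 0.39 for the 9 genes against 0.05 for all genes. Syce3 (0.68, adjusted p = 0.391), Sycp1 (0.59, adjusted p = 0.431) and Sycp2 (0.82, adjusted p = 0.467) had the smallest p-values. The difference of the KO effects between the sexes passed for 0 of the 9 by limma, where 0.0518% of all genes passed, and ranged from -0.68 to 0.79. Its unadjusted p by limma was under 0.05 for 0 of the 9 and for 494 of all 13518 genes tested. Leaving out female Het2 replicate 1 and male Het1 replicate 1 together, an alternative chosen after the values were seen, let 3 of the 9 pass over both sexes: Stra8 (0.83, adjusted p = 0.0315), Sycp2 (1.19, adjusted p = 0.0448) and Sycp3 (0.76, adjusted p = 0.0415), by limma, with 4.24% of all genes called. In females Sycp3 alone then passed (1.10, adjusted p = 0.0398), with 4.41% of all genes called. These 2 libraries hold the highest Het values of most of the 9 genes, so leaving them out raises KO minus Het by construction.

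**Figure D4:**
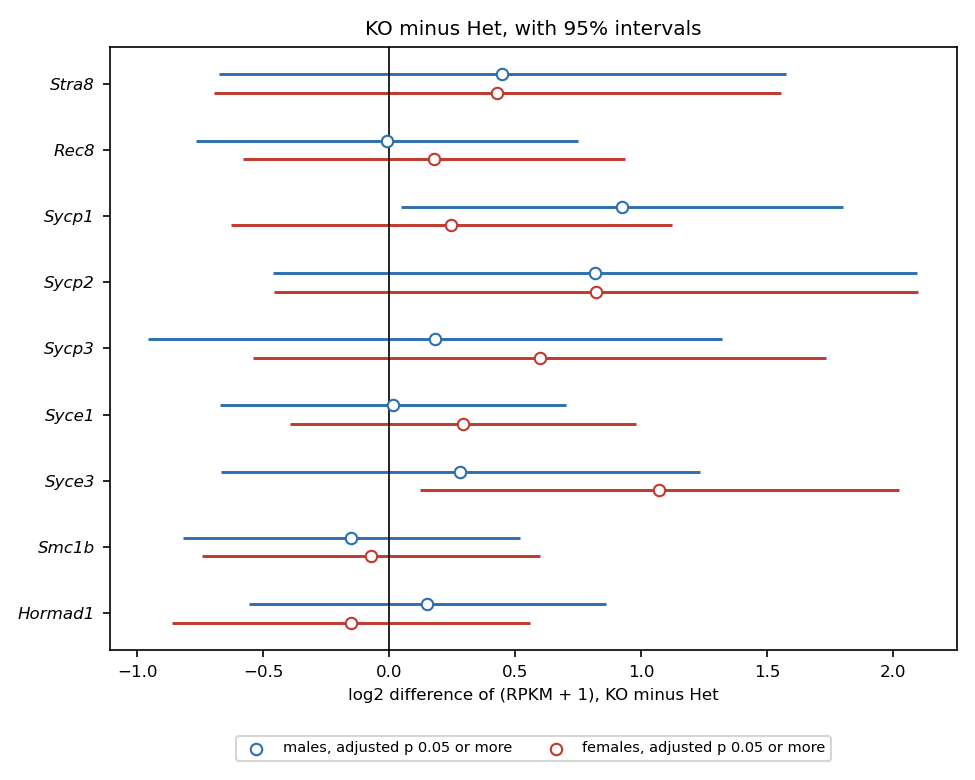
Log2 difference of RPKM + 1, KO minus Het, for each gene in males (blue) and females (red), with 95% intervals from limma; open points have an adjusted p of 0.05 or more. All 18 points are open, and the intervals of Sycp1 in males (0.05 to 1.80) and Syce3 in females (0.12 to 2.02) are the 2 that exclude 0.

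Soma set the floor. In male C57BL/6 soma the 9 genes stood between 0 and 2.88 RPKM, with Stra8 and Hormad1 listed at 0, Syce3 at 0.08, Syce1 at 0.15, Sycp2 at 0.35, Smc1b at 0.53, Rec8 at 0.56, Sycp1 at 2.35 and Sycp3 at 2.88. Male C57BL/6 germ cells had 66.1 RPKM of Smc1b, 25.6 of Syce1, 22.3 of Hormad1, 20.1 of Sycp3, 11.85 of Sycp1, 6.82 of Sycp2, 5.59 of Rec8 and 2.53 of Syce3, but 0.8 of Stra8. By a rule of size on RPKM + 1, 8 of the 9 genes were at least 2-fold higher in germ cells, where 17.6% of 13457 genes were; Stra8 was below it. With 1 library each there is no test. So most of these genes had RNA in the male germ cells, in which Stra8 was nearly absent, and the wild-type male library of the cross had the same order of levels at its ends, with 93.4 RPKM of Smc1b and 0 of Stra8.

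The other genes of the pathway were read from lists chosen with earlier results of these data known. Of 17 listed axis and synaptonemal complex partners 11 were found by name and 10 tested; 5 were higher and 1 lower in female Het. Ccdc36 (also Iho1, which binds HORMAD1 and is needed for DNA breaks) lay between 2.18 and 3.07 RPKM in male Het and between 6.06 and 36.1 in female Het (log2 difference 1.79, SE 0.42, adjusted p = 0.00707 by limma). Hormad2 went from 9.635 to 24.2 RPKM (1.16), Stag3, the meiotic cohesin partner of REC8 and SMC1B, from 78.7 to 142 (0.83), Mei4 from 2.675 to 5.37 (0.77) and Syce2, a central element gene, from 47.89 to 75.03 (0.63). Trip13, the ATPase that removes HORMADs from axes, was lower, from 57.6 to 40.7 RPKM (-0.49, adjusted p = 0.00967 by limma). The kleisin gene Rad21l stood at 0 to 1.32 RPKM in male Het and at 2.19, 3.7, 54.3 and 0.43 in female Het and did not pass (2.17, SE 0.87, adjusted p = 0.0765 by limma), nor did Tex12 (1.11, adjusted p = 0.0741). In KO against Het over both sexes 0 of the 10 passed, 0 in either direction.

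Of 13 tested cohesin genes of mitotic cells, 3 were higher in female Het (Pds5a 0.59, Esco1 0.58 and Stag1 0.31) and 1 lower (Cdca5, the sororin gene, from 64.7 to 32.6 RPKM, -1.03, adjusted p = 0.00318 by limma). Smc1a, the mitotic counterpart of Smc1b, was at 40.8 and 40.9 RPKM in male and female Het (-0.00318, adjusted p = 0.987), and Rad21, the counterpart of Rec8, at 256 and 185 RPKM (-0.55, adjusted p = 0.089), by limma. Over all genes 17.6% were called higher and 14.3% lower. The median was 0.10 for this list, 0.80 for the meiotic partners and 0.05 for all genes. Whether the lists differ was not tested.

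Among 24 listed regulators of meiotic entry 22 were tested, and 10 were higher and 7 lower in female Het. Gm1564 (Meioc, which stabilises the meiotic programme with YTHDC2) went from 3.29 to 84.3 RPKM (4.07, SE 0.36), and Gm4969 (Meiosin, the partner of STRA8) from 1.615 to 19.9 (2.90, SE 0.35). Rarb, a retinoic acid receptor and target, went from 1.3 to 5.715 RPKM (1.56) and Tex15 from 27.4 to 83.7 (1.43). Taf7l (2.79) was at 20.4, 1.72, 2.28 and 1.72 RPKM in male Het and at 17.55, 34.05, 172 and 9.55 in female Het, with overlapping groups. Its highest Het value was in Het1 replicate 1 in males and in Het2 replicate 1 in females. Nanos2, the repressor of meiosis in male germ cells, was at 57.6, 1.59, 9.05 and 1.96 RPKM in male Het, most of it in Het1 replicate 1, and listed at 0 in every female Het library (adjusted p = 0.0143 by limma). Dazl, the factor that licenses germ cells for meiosis, did not differ beyond its spread (667 and 771 RPKM, 0.20, adjusted p = 0.454). Of 11 tested genes of male germ cell fate, 6 were lower in female Het and 0 higher, among them Lefty2, from 139 to 0.168 RPKM, and Nodal, from 24.75 to 1.495 RPKM. In KO against Het over both sexes 0 genes of these lists passed by limma. An unadjusted p under 0.05 by limma was found for 7 of all listed genes, and for 1708 of all 13518 genes tested. The listed genes tested were 10 partners, 22 entry regulators, 13 mitotic cohesin genes and 11 male fate genes. Nanos2 is in both of the last-named kinds of regulator and male fate list. Of the 7, 6 had a positive difference (Tex15, Tdrd9, Taf7l, Rdh10, Mael and Rarb) and 1 a negative one (Dazl). Whether the listed genes differ from all genes was not tested.

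At the promoters, H3K27me3, the Polycomb mark, and H3K9me3, the mark that SETDB1 lays down, were read as RPKM within 1 kb of either side of the start, with no replicates and no test. H3K27me3 of the 9 genes was above the median of all promoters in all 4 germ cell libraries except at Rec8 and Syce1 in female KO. It was modest in level: 0.443 to 1.59 RPKM in male Het, where the median of all promoters was 0.254 and the 95th percentile 1.42. Sycp1 had the highest values, 1.59 in male Het, 1.14 in male KO, 1.22 in female Het and 0.735 in female KO, and Stra8 had 1.15, 0.852, 0.57 and 0.591 RPKM in the same order.

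All 9 promoters had less H3K27me3 in female Het than in male Het. Of the 3 that reached the minimum of 1 RPKM in either library, 0 were past 2-fold on RPKM + 0.1, where 1.39% of 2796 promoters were. The widest difference was at Stra8, from 1.15 to 0.57 RPKM (log2 difference -0.90 on RPKM + 0.1), followed by Smc1b (-0.45), Syce3 (-0.43), Sycp1 (-0.36) and Syce1 (-0.27). The median was -0.27 for the 9 and 0.03 for all promoters. Promoters with as much of the mark as these 9 were also lower in the female library: of 7175 promoters with a mean between 0.4085 and 1.41 RPKM, 68.4% were lower, with a median of -0.15, while 46.3% of all promoters were. With 1 library per sex, a difference between the sexes and a difference between libraries cannot be told apart.

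In KO against Het, 3 of the 9 promoters in males and 1 in females reached 1 RPKM of H3K27me3, and 0 of these were past 2-fold, where 0.762% of promoters were in males and 0.937% in females. The largest drops were at Sycp2 in males, from 0.948 to 0.441 RPKM (-0.95), and at Rec8 in females, from 0.374 to 0.132 (-1.03), and neither reached 1 RPKM in either library. Sycp1 (-0.45 and -0.66), Syce1 (-0.56 and -0.64), Syce3 (-0.46 and -0.26) and Sycp2 (-0.95 and -0.31) were lower in KO in males and in females, and Smc1b (0.07 and 0.29) and Hormad1 (0.25 and 0.08) higher in each. Over all promoters the female KO library was lower at 64.7% and the male one at 54.9%.

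H3K9me3 was lower in level but high in rank. In male Het the 9 promoters had 0.102 to 0.987 RPKM against a median of 0.127 for all, and in female Het 0.175 to 1.16 against 0.179. Sycp1 lay at or above the 97.4th percentile of all promoters in each of the 4 germ cell libraries, with 0.987 and 0.91 RPKM in male Het and KO and 1.16 and 0.664 in female Het and KO. Syce3 lay at the 95.1st percentile or above and Hormad1 at the 92.4th or above in all 4, while Rec8 and Smc1b came down to the 3.23rd and the 49.0th. Promoters with 1 RPKM or more of the mark were few, 298 of 22138 in male Het, and among the 9 genes Sycp1 in female Het reached it.

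In KO against Het, 0 of the 9 promoters reached 1 RPKM of H3K9me3 in males, and 1 did in females (Sycp1) and was not past 2-fold, where 13.6% of 464 promoters at 1 RPKM or more did in males and 16.1% of 311 in females. In males 4 of the 9 were lower and 5 higher, from -0.46 at Sycp2 (0.613 to 0.419 RPKM) to 0.42 at Hormad1 (0.603 to 0.841). In females 7 of the 9 were lower, where 63.4% of all promoters were: Sycp1 went from 1.16 to 0.664 RPKM (-0.73), Syce3 from 0.942 to 0.534 (-0.72), Sycp2 from 0.616 to 0.314 (-0.79) and Rec8 from 0.196 to 0.019 (-1.31). Between the sexes in Het 1 of the 9 (Sycp1) reached 1 RPKM and was not past 2-fold, where 8.53% of 387 promoters were.

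In male C57BL/6 soma the H3K9me3 values of the 9 promoters lay between 0.842 and 1.27 RPKM, and all 9 were higher than in male Het germ cells. Of the 6 that reached 1 RPKM, 3 were at least 2-fold higher on RPKM + 0.1 (Stra8 1.05 against 0.446, Syce1 1.06 against 0.409 and Smc1b 1.27 against 0.215), where 79.4% of 4306 promoters were. Rec8 and Sycp3 were also more than 2-fold higher but stayed below 1 RPKM. The median of all promoters was itself 0.721 RPKM in the soma library and 0.127 in the germ cell library, and the median log2 difference was 1.08 for the 9 genes and 1.66 for all promoters. The libraries differ in genotype as well as in cell type, and these cannot be told apart.

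**Figure D5:**
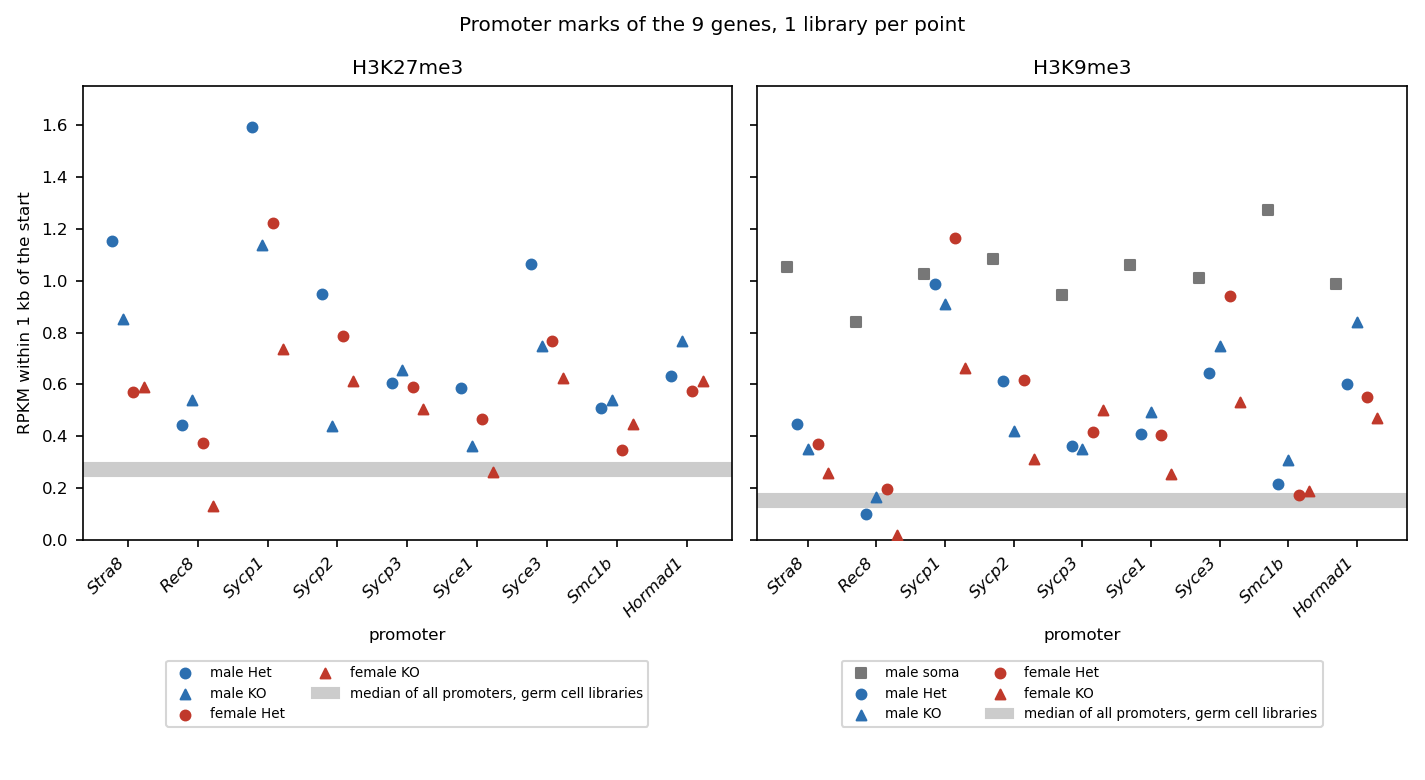
Promoter RPKM of H3K27me3 (left) and H3K9me3 (right) for the 9 genes, with 1 library per point; the grey band spans the medians of all promoters in the 4 germ cell libraries. Sycp1 has the highest H3K27me3 (1.59 RPKM in male Het) and Rec8 the lowest H3K9me3 (0.019 RPKM in female KO). Soma (squares) lies above the germ cell medians at all 9 genes, as does the lower quartile of all promoters in soma (0.498 RPKM).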

How the data were processed

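Germ cells and soma were sorted from mouse gonads by SSEA1, per the labels, and RNA and chromatin immunoprecipitates were sequenced. The submitters' processing notes name BWA and build mm9 for both, and SAMtools for RNA; for versions, read counter and scaling total, the entry is: not given in the sources used here. All values are RPKM, computed by the authors and deposited per gene or per promoter, per the file headers. They were not rescaled. All 9 gene identifiers matched the reference names. Repeat families, DNA methylation and total H3 were not analysed here.

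RNA of 12 libraries was taken as log2(RPKM + 1), filtered at RPKM 1 or more in 2 libraries (13518 genes), and fitted in limma 3.58.1 (R 4.3.3; 4 group means, eBayes with trend), two-sided, with Benjamini-Hochberg adjustment over all genes at 0.05. The labels do not say that replicates are separate embryos, so p-values measure the spread between these libraries. On simulated data for female against male in Het (13064 and 13055 genes, 200 changed), 70.0% of changes of 1 log2 unit and 98.5% of 2 were recovered. Promoters were called at 2-fold on RPKM + 0.1 with 1 RPKM in either library, with no p.

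The 9 genes and all lists were chosen with earlier results of these data known. All 9 genes are named, with up to 6 genes per list among those passing with the largest difference, others where a result turns on them, and the genes most like the 9. Alternatives covered pseudocount, filter, scaling, controls, replicate block, eBayes options and each library left out.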

Additional observations from a re-analysis of the deposited data

Results flagged for a closer look

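Of 18 groups of 4 Het libraries (9 genes, 2 sexes) examined on the log2(RPKM + 1) scale, 1 held a library far from the others. Sycp3 stood at 38.72 RPKM in male Het1 replicate 1, with the next library at 20.34 RPKM, a gap that took 0.857 of the range of the group. Chance alone gives such a gap in about 1 of 20 groups.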

How the results depend on the processing

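Depth is unknown for these RPKM values, and 2 KO libraries per sex and 1 promoter library per mark and group limit the precision. Of the values for single genes under the alternatives, 965 kept their direction and side of the threshold, 26 lost the call, 4 gained it and 25 changed sign. Leaving out 1 library gave 7 to 8 of 9 genes differing between the sexes in Het and 2 to 6 in KO (a lone KO library is assumed to vary like the other groups). With Het1 alone as control the count in Het was 5, and Sycp2 was at -0.056. Leaving out male Het1 replicate 1 and female Het2 replicate 1 together, chosen after seeing the data, gave 1 gene called in KO females and 3 over both sexes. Sign changes among KO differences that never passed were, in males, Rec8 (0.37 with Het2 alone, 0.079 with wild-type added, 0.23 without both libraries, -0.16 to 0.23 leaving out 1), Sycp3 (-0.094 with Het1 alone), Syce1 (-0.041 with median centring, -0.11 with Het1 alone, -0.076 to 0.13 leaving out 1), Smc1b (-0.49 to 0.19) and Hormad1 (-0.26 to 0.56). In females they were Rec8 (-0.065 to 0.40), Sycp1 (-0.12 to 0.62), Smc1b (0.018 with quantile normalization, 0.17 with Het1 alone, 0.054 with wild-type added, 0.19 without both, -0.29 to 0.19 leaving out 1) and Hormad1 (0.087 with Het1 alone, 0.066 without both, -0.40 to 0.10 leaving out 1). A 1.5-fold rule called 1 promoter of the 9 genes for H3K27me3 between the sexes (13.1% of all promoters that reached 1 RPKM), 1 for H3K27me3 in KO females (12.6%) and 1 for H3K9me3 in KO females (34.7%). For H3K9me3 in soma against germ cells the count was 0 with pseudocount 1 (15.1% of all promoters), 5 with a minimum of 0.5 RPKM (82.7%) and 1 with median centring (71.4%). The cause of these changes was not tested. With the replicate number as a block the 9 genes gave the same counts (8, 6, 0, 0, 0 and 0). Over the 15 pairs of groups the correlation of same-numbered libraries ran from -0.040 to 0.56, with a median of 0.30 and 14 over 0.1. The labels name no shared source, and not every pair was over 0.1, so the number was not taken as a pairing; a shared source was not excluded. Over all genes the block gave 5347 calls between the sexes in Het against 4312 without it, 91 in KO females against 55, and 11 for the difference of the KO effects against 7.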

Other observations

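The genes whose RNA was most like the mean profile of the 9 over 15 germ cell libraries were Atf7ip2 (Pearson r = 0.990), Dmrtc2 (0.984), the meiotic helicase gene Hfm1 (0.979), the DAZ-family gene Boll (0.979) and 4930524B15Rik (0.976). The libraries fall into 2 sexes, which sets much of these values. Within the 8 male and the 7 female libraries the r was 0.846 and 0.987 for Atf7ip2, 0.769 and 0.975 for Dmrtc2, 0.834 and 0.980 for Hfm1, 0.769 and 0.970 for Boll and 0.667 and 0.961 for 4930524B15Rik. Hfm1 went from 8.91 RPKM in male Het to 27.4 in female Het by group means, and Dmrtc2 from 0.698 to 18.5. Most like Stra8 alone were Rhbdl3 (0.993), 1700013H16Rik (0.990) and Abca2 (0.990). Within males and within females their r was lower: 0.888 and 0.908 for Rhbdl3, 0.791 and 0.925 for 1700013H16Rik, and 0.542 and 0.904 for Abca2. The gene 1700013H16Rik belongs to a family of similar copies (synonyms Slx2 and Xlr6), and how shared reads were counted is not given.

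The wild-type libraries stood outside the fits. The female one had 36.7 RPKM of Stra8, 38.7 of Rec8, 18.9 of Sycp1, 4.62 of Sycp2 and 5.17 of Syce3. Its Stra8, Rec8, Sycp1, Sycp2 and Sycp3 values were below all 4 female Het libraries, as was the case for Syce1. The share of all genes with that order is not given. The male one had 0 RPKM of Stra8, 6.94 of Rec8 and 11.01 of Sycp1.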
